A study of Rattus norvegicus with 6 samples.

Results

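Genes of the T cell receptor complex and of cytotoxic lymphocytes were followed on 6 arrays of fat taken from around the pancreas of Wistar rats. Of 14217 genes named on the arrays, 10 were followed, chosen by name with earlier results of these data known. The T cell receptor genes were Cd3d, Cd3e, Cd3g, Cd5 and Lck, measured by 6 probe sets, and the cytotoxic genes were Prf1, Nkg7, Klrd1, Gzmk and Cd8a, measured by 7. A probe set is a group of array probes for 1 transcript, and all 13 whose annotation listed a single symbol among these genes were kept. The lean group held 3 rats given standard chow, numbered 14, 18 and 19 in the labels. The obese group held 3 rats kept for 30 days on a cafeteria diet, which is high in calories, numbered 29, 32 and 42. Wistar is an outbred strain, the tissue was taken whole without sorting of cells, and the labels used here give no age or sex. Each rat gave 1 array, with log2 expression values on a scale where 1 unit is a 2-fold difference.

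T cells recognise peptides through a receptor whose signal is passed into the cell by the CD3 chains gamma, delta, epsilon and zeta. Lck is the kinase that phosphorylates those chains, and Cd5 is a surface protein that restrains the signal. Cytotoxic T cells and natural killer (NK) cells kill by releasing granules that hold perforin, the pore-forming protein, and granzymes, which are proteases. T cells and NK cells are a regular part of the leucocytes that live among the fat cells of visceral depots.

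The promoters of 7 members are shown, the CD3 genes and the genes that held the RUNX core described below, taken from RefSeq in the GRCr8 build. Their part in the expression values was not tested. The table held the 250 bases before and the 50 after the start site for 9 of the 10 genes, with 2 start sites for Lck. Capitals mark the core letters bound by ETS factors (GGAA, or TTCC on the other strand) and by RUNX factors (TGTGGT, or ACCACA on the other strand), families with known roles in lymphocytes. The Cd3g window is chr8:54183869-54184168 on the minus strand, that of Cd3d is chr8:54185269-54185568 on the plus strand and that of Cd3e is chr8:54211721-54212020 on the minus strand. Those of Lck (the first listed), Prf1, Nkg7 and Gzmk are chr5:147201218-147201517 on the minus strand, chr20:29788790-29789089 on the plus strand, chr1:102981247-102981546 on the plus strand and chr2:46581966-46582265 on the minus strand.
Cd3g: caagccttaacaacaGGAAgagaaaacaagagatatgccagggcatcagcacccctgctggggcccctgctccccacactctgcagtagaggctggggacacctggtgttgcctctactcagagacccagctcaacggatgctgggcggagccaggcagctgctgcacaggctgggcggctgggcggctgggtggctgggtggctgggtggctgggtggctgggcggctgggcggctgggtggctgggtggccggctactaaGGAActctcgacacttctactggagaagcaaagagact
Cd3d: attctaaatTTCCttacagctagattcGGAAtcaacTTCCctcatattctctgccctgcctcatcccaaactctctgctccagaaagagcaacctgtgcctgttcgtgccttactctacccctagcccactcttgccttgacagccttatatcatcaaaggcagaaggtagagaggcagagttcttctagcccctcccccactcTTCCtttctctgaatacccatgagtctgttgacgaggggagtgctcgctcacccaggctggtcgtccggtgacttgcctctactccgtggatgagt
Cd3e: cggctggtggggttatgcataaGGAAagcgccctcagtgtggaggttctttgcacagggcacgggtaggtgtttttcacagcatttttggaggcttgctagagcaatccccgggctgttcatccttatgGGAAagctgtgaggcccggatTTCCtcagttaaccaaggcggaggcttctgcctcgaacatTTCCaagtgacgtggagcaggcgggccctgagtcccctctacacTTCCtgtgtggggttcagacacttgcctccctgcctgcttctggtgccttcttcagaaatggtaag
Lck: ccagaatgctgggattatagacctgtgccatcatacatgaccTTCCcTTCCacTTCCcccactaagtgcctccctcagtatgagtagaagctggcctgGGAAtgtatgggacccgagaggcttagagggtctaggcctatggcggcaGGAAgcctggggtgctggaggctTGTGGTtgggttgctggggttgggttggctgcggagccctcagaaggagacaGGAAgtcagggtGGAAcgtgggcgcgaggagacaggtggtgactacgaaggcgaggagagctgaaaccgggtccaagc
Prf1: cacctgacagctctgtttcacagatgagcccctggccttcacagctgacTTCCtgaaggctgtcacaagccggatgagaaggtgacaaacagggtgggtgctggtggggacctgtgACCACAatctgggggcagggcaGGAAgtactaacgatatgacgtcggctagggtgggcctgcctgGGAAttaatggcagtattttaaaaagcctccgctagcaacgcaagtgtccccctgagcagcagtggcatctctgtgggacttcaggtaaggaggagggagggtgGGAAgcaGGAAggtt
Nkg7: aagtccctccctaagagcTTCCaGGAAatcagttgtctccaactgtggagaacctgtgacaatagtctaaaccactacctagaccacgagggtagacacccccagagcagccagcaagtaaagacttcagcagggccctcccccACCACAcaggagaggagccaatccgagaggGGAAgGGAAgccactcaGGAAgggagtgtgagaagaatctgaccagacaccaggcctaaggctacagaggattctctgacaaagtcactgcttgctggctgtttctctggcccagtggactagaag
Gzmk: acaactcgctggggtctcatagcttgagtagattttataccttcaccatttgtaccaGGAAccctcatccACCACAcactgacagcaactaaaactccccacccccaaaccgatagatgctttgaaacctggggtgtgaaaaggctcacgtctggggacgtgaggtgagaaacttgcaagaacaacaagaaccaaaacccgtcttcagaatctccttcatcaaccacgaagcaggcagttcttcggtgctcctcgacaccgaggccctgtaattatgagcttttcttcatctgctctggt

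The RUNX core was found in 3 of the 4 cytotoxic genes with a promoter (Prf1, Nkg7 and Gzmk, beginning 134, 106 and 180 bases before the start site), and in 1 of the 5 T cell receptor genes, Lck. Of all 33469 promoters of the same length, 17.3% held it. The ETS core was found in all 9 genes and in 95.8% of all promoters. The E-box (CANNTG, which reads the same on both strands) was found in 4 of 5 receptor genes and 3 of 4 cytotoxic genes, against 72.1% of all promoters. The other letters searched on both strands were AGATAA, found in none of the 9 genes, CTTTGA, found in Cd3d and Gzmk, and TATAAA, found in Gzmk. Those were found in 11.6%, 16.1% and 14.2% of all promoters. A base may belong to matches of more than 1 motif, and a match describes these letters only.

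Obese rats were set against lean rats to ask how expression in this fat depot differs on the cafeteria diet. All 5 T cell receptor genes were lower on average in the obese rats, with a median difference of -0.65 on the log2 scale. Of the 5 cytotoxic genes 4 were lower, with a median of -0.56, and Cd8a lay at 0.0041 on its brightest probe set. The median over all 14217 genes was 0.02, and 46.3% of them were lower. Of the 10 genes 0 passed limma's test adjusted over all genes (adjusted p = 0.251 to 0.988), where 0.00703% of all genes passed, namely Slc22a3 alone. At an unadjusted p under 0.05, 8 of the 10 were lower, 4 in each set, against 6.18% of all genes, and 0 were higher, against 7.23% of all genes. In bulk tissue, fewer cells of a type and less RNA per cell cannot be told apart.

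**Figure D1:**
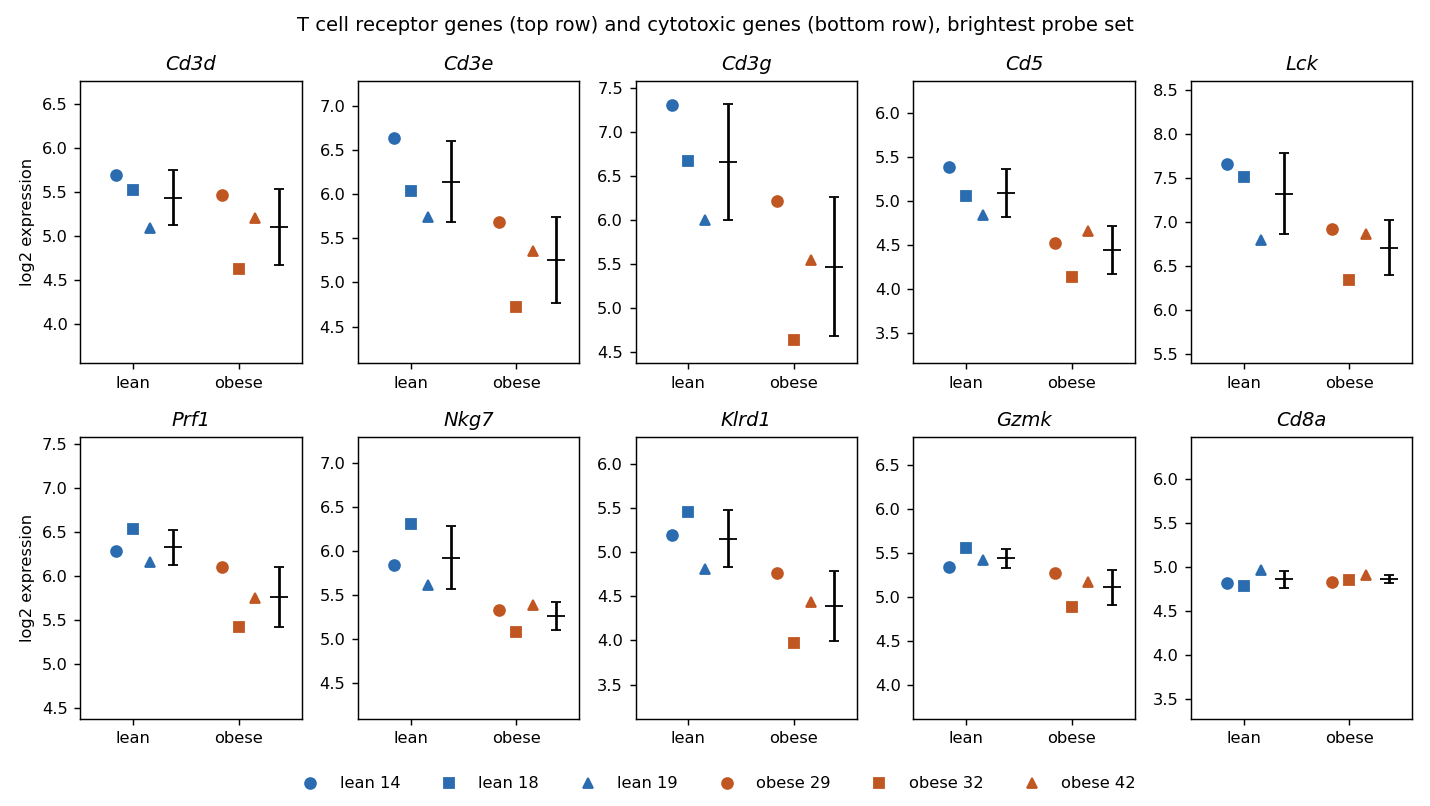
Log2 expression of each gene's brightest probe set on each array, T cell receptor genes in the top row and cytotoxic genes in the bottom row. Each point is 1 rat, the bar beside each group is the mean and SD (n = 3), and every panel spans the same number of log2 units. Obese 32 is the lowest array for 9 of the 10 genes, and lean 14 is the highest for all 5 T cell receptor genes.

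Cd3g, the gamma chain of CD3, had the largest difference of the 10. It lay at 7.31, 6.67 and 5.997 on lean 14, 18 and 19 and at 6.22, 4.64 and 5.55 on obese 29, 32 and 42. Obese 29 lay above lean 19, so the groups overlapped, and the spread within each group was wide. The means were 6.66 ± 0.66 (SD, n = 3) and 5.47 ± 0.79 (SD, n = 3), a difference of -1.19 (SE 0.45, 95% interval -2.23 to -0.14, adjusted p = 0.334), or 2.28-fold. Without obese 32 it was -0.77.

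Cd3e, the epsilon chain, which pairs with both gamma and delta, has a brighter and a dimmer probe set. The brighter lay at 6.64, 6.04 and 5.74 on the lean and at 5.69, 4.73 and 5.36 on the obese arrays. These groups did not overlap, but only 0.057 separated lean 19 from obese 29. The difference was -0.88 (SE 0.30, adjusted p = 0.305), from 6.14 ± 0.46 to 5.26 ± 0.49 (SD, n = 3 each). On the dimmer probe set the values were 5.34, 4.80 and 4.47 against 4.83, 4.40 and 4.07, which overlapped. That difference was -0.44 (SE 0.26, adjusted p = 0.545 over all 31042 probe sets), in the same direction, and its lowest array was obese 42 instead of obese 32.

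Cd3d, the delta chain, had the smallest difference of the receptor genes. It lay at 5.69, 5.52 and 5.09 on the lean and at 5.47, 4.63 and 5.20 on the obese arrays, and both obese 29 and obese 42 lay above lean 19. The difference of -0.34 (SE 0.24) had a 95% interval of -0.90 to 0.22 (adjusted p = 0.563), so neither no difference nor one as large as that of Cd5 lay outside it. It moved with single rats, to -0.10 without obese 32, -0.21 without lean 14, -0.51 without lean 19 and -0.52 without obese 29.

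Lck, the receptor's kinase, lay at 7.65, 7.51 and 6.80 on the lean and at 6.92, 6.34 and 6.86 on the obese arrays. Lean 19 lay below obese 29 and obese 42, and the difference was -0.61 (SE 0.25, adjusted p = 0.364). Cd5 lay at 5.38, 5.06 and 4.84 on the lean and at 4.53, 4.14 and 4.66 on the obese arrays, without overlap. Its means of 5.10 ± 0.27 and 4.44 ± 0.27 (SD, n = 3 each) differed by -0.65 (SE 0.18, adjusted p = 0.251), the lowest adjusted p among the brightest probe sets.

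On lean arrays all 5 receptor genes kept 1 order, with lean 14 highest and lean 19 lowest. On obese arrays all 5 were lowest on obese 32, and 4 were highest on obese 29 and 1, Cd5, on obese 42. Obese 29 lay above lean 19 for Cd3d, Cd3g and Lck. Only Cd3e and Cd5 separated the groups.

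Prf1 encodes perforin. It lay at 6.28, 6.54 and 6.16 on the lean and at 6.10, 5.43 and 5.76 on the obese arrays, without overlap and with 0.055 between lean 19 and obese 29. The means were 6.33 ± 0.19 and 5.76 ± 0.34 (SD, n = 3 each), a difference of -0.56 (SE 0.18, adjusted p = 0.298).

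Nkg7, a granule membrane protein of killer cells, lay at 5.84, 6.31 and 5.61 on the lean and at 5.32, 5.08 and 5.38 on the obese arrays. The gap between the groups was 0.23, the widest among the brightest probe sets of the 10 genes. Its difference was -0.66 (SE 0.18, adjusted p = 0.253), a 1.58-fold difference.

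Klrd1 is CD94, the partner of the NKG2 receptors on NK cells. Its values were 5.20, 5.46 and 4.81 on the lean and 4.77, 3.97 and 4.44 on the obese arrays, and 0.045 separated the groups. The difference of -0.77 (SE 0.23, adjusted p = 0.285) was the largest of the cytotoxic set, or 1.70-fold. On obese 32 and obese 42 the probe set lay below the lower quartile of those arrays (4.46 and 4.49), where signal over background is small.

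Gzmk, granzyme K, lay at 5.34, 5.55 and 5.42 on the lean and at 5.27, 4.88 and 5.16 on the obese arrays. The groups did not overlap, and the spread was narrow, at 5.44 ± 0.11 against 5.11 ± 0.20 (SD, n = 3 each). The difference was -0.33 (SE 0.12, adjusted p = 0.334), or 1.26-fold, and -0.22 without obese 32.

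Cd8a encodes the alpha chain of the CD8 coreceptor, and its 3 probe sets did not give 1 answer. The brightest lay at 4.82, 4.79 and 4.97 on the lean and at 4.83, 4.85 and 4.91 on the obese arrays. These overlapped fully, with a difference of 0.0041 (SE 0.088, 95% interval -0.20 to 0.21). The second lay at 4.53, 4.79 and 5.15 against 4.33, 4.05 and 4.22, without overlap, a difference of -0.62 (SE 0.16). The third lay at 4.59, 4.51 and 4.41 against 4.05, 4.11 and 3.86, also without overlap, a difference of -0.49 (SE 0.10). Over all 31042 probe sets, adjusted p was 0.296 for the second and 0.228 for the third, the lowest of the 13. All 3 lay below the median of every array, and the second and the third below the lower quartile on 3 and 4 of the 6 arrays. With the mean of the 3 probe sets the Cd8a difference was -0.37 (adjusted p = 0.201). Which of them measures the Cd8a transcript best was not tested.

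**Figure D2:**
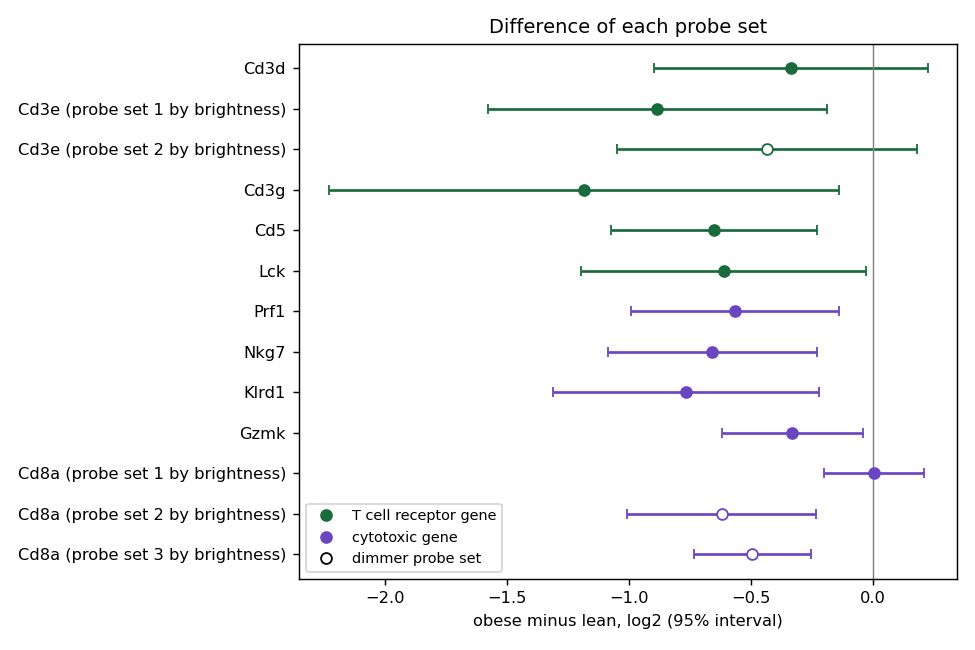
Difference of each of the 13 probe sets, obese minus lean on the log2 scale, with its 95% interval from limma. Filled points are each gene's brightest probe set and open points are dimmer ones. Every point but that of the brightest Cd8a probe set (0.0041) lies left of 0, and the interval of Cd3g is the widest.

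The cytotoxic genes were ordered differently from the receptor genes. On 4 of the 5, all but Cd8a, lean 18 was the highest array, against lean 14 for the receptor genes, and obese 32 was the lowest. Obese 29 lay above lean 19 for 0 of the 5. The groups did not overlap for 4 of 5 cytotoxic and 2 of 5 receptor genes, 6 of the 10 together, against 8.18% of all genes lower without overlap. Over all 13 probe sets, 8 were lower without overlap, against 7.71% of the 20826 probe sets with 1 symbol. The difference between the 2 sets was not tested. As the mean of the set from its level over 6 arrays, the receptor genes ran from 0.77 on lean 14 to -0.87 on obese 32, and the cytotoxic genes from 0.42 on lean 18 to -0.47 on obese 32.

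Other T cell genes were read from a list of 28, of which 22 were measured. Of these 20 were lower, against 46.3% of all genes, with a median of -0.28 (-0.49 without lean 19). At an unadjusted p under 0.05, 9 were lower and 0 higher, against 6.18% and 7.23% of all genes, and 0 passed the adjusted test. Prkcq, the protein kinase C of the T cell synapse, lay at 6.69, 6.57 and 6.47 on the lean and at 6.15, 5.34 and 5.87 on the obese arrays, a difference of -0.79 (SE 0.20, adjusted p = 0.217). Txk, a kinase of the Tec family, lay at -0.49 (SE 0.11). The adaptor Lcp2 lay at -0.75 and the interleukin 7 receptor Il7r at -0.55. Rhoh, a GTPase needed for receptor signalling, had the lowest difference of the list (-0.84), and Cd40lg the highest (0.05).

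Some parts of the receptor machinery were chosen for naming after their values were seen. Cd247, the zeta chain that completes CD3, lay at 5.64, 5.67 and 5.10 on the lean and at 5.11, 4.44 and 4.998 on the obese arrays. It was highest on lean 18, by a little over lean 14, where the 5 receptor genes were highest on lean 14, and obese 29 lay just above lean 19. The difference was -0.62 (SE 0.22, adjusted p = 0.317). Lat, the adaptor downstream, lay at -0.47 (SE 0.20), and Zap70, the kinase that binds phosphorylated CD3 chains, at -0.21 (SE 0.12). Cd6 lay at -0.06 (SE 0.12) and Cd28, the costimulatory receptor, at -0.04 (SE 0.14), and both overlapped between the groups. Cd28 lay below the lower quartile of every array, where signal over background is small.

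The coreceptors CD4 and CD8 were read in the same way, and no test compared them. Cd4 lay at 7.56, 7.995 and 7.003 on the lean and at 7.53, 7.22 and 5.92 on the obese arrays, with the lowest value on obese 42 and not on obese 32. Its difference was -0.63 (SE 0.43, adjusted p = 0.550). Rat macrophages carry CD4 as well as helper T cells do. The macrophage list was also lowest on obese 42 (-0.93), and its part in the Cd4 values was not tested. Cd8b, the beta chain of CD8, lay at 4.43, 4.48 and 4.30 against 4.18, 4.45 and 4.42, overlapping, a difference of -0.06 (95% interval -0.30 to 0.19).

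Killer cell genes beyond the 5 were read from a list of 30, of which 23 were measured. Of these 17 were lower, against 46.3% of all genes, and 6 higher, with a median of -0.22 (-0.12 without obese 32). At an unadjusted p under 0.05, 8 were lower and 0 higher, against 6.18% and 7.23% of all genes, and 0 passed the adjusted test. Cst7, cystatin F, which controls granule proteases, lay at 7.06, 6.92 and 6.65 on the lean and at 6.14, 6.01 and 6.13 on the obese arrays. The obese rats varied little, and the groups lay well apart, at -0.78 (SE 0.12, adjusted p = 0.102). Il2rb, the shared receptor subunit for interleukins 2 and 15, lay at -0.85 (SE 0.20), and the killer cell lectin-like receptor Klrb1a at -1.005 (SE 0.24). The chemokine Ccl5 had the lowest difference of the list (-1.15, SE 0.28), at 7.499, 7.99 and 7.36 against 7.08, 6.08 and 6.24. Highest was the Fas ligand gene Faslg (0.18).

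The other granzymes and effector genes in this paragraph were named after their values were seen. Gzmb, the main apoptosis-inducing granzyme, lay at 4.55, 4.51 and 4.44 on the lean and at 4.36, 4.21 and 4.11 on the obese arrays, a difference of -0.27 (SE 0.095, adjusted p = 0.315). Gzma lay at -0.27 (SE 0.15), with overlap, and the NK receptor gene Ncr1 at -0.28 (SE 0.14). Interferon gamma (Ifng) lay at -0.04 (SE 0.09), with values of 3.35 to 3.57 on all 6 arrays. Ncr1, Ifng and Ctla4, described with the checkpoint genes, lay below the lower quartile (4.41 to 4.49) on every array, where signal over background is small. So did Cd28 and Cd40lg, and Fcer2 of the B cell list. Gzmb lay below it on every obese array, and Gzma on lean 18 and every obese array. Cd8b, Txk of the T cell list and Il10 of the checkpoint list lay below it on lean 19 and every obese array. Stat4 lay below it on obese 32 and obese 42, and Cd5, Cd247, Rhoh and Klrb1a on obese 32.

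Of 12 transcription factors of T cells 8 were measured. All 8 were lower, against 46.3% of all genes, with a median of -0.51. Of them 7 were lower at an unadjusted p under 0.05 and 7 without overlap, against 6.18% and 8.18% of all genes, and 0 passed the adjusted test. Tcf7, the T cell factor of naive and memory cells, lay at 6.90, 6.86 and 6.40 on the lean and at 6.31, 4.83 and 6.24 on the obese arrays, lowest on obese 32 (-0.92, SE 0.38). Lef1, its relative, lay at 5.68, 5.70 and 6.22 against 5.37, 5.30 and 5.42 (-0.51, SE 0.15). Stat4, which relays interleukin 12, lay at -0.51 (SE 0.11), Gata3 at -0.51 (SE 0.17) and Runx3, a factor of killer T cells, at -0.44 (SE 0.14). Tox was the 1 that overlapped (-0.37, SE 0.23).

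Of 11 regulatory and checkpoint genes 5 were matched to a probe set, and Foxp3 and Pdcd1 were not analysed here. Of the 5, 3 were lower, against 46.3% of all genes, and 2 higher. Against 6.18% and 7.23% of all genes, 1 was lower and 2 were higher at an unadjusted p under 0.05. The median of the 5 was -0.05, and it ran from -0.08 to -0.0076 with 1 array left out (-0.0076 without obese 32, -0.03 without lean 19, -0.08 without lean 18 or without obese 42). Ctla4, the inhibitory receptor, lay at 4.05, 4.11 and 3.94 on the lean and at 4.26, 4.28 and 4.21 on the obese arrays, all 3 obese values above all 3 lean ones (0.21, SE 0.085, adjusted p = 0.354), on the dim level given with Ncr1. Tnfrsf4 (OX40) was also higher on all 3 obese arrays than on any lean one (0.27, SE 0.095). The share of all genes higher without overlap was not counted, so these 2 genes have no background beside them. Il10 lay at -0.45 (SE 0.15), and Ikzf2 at -0.32 (SE 0.19).

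**Figure D3:**
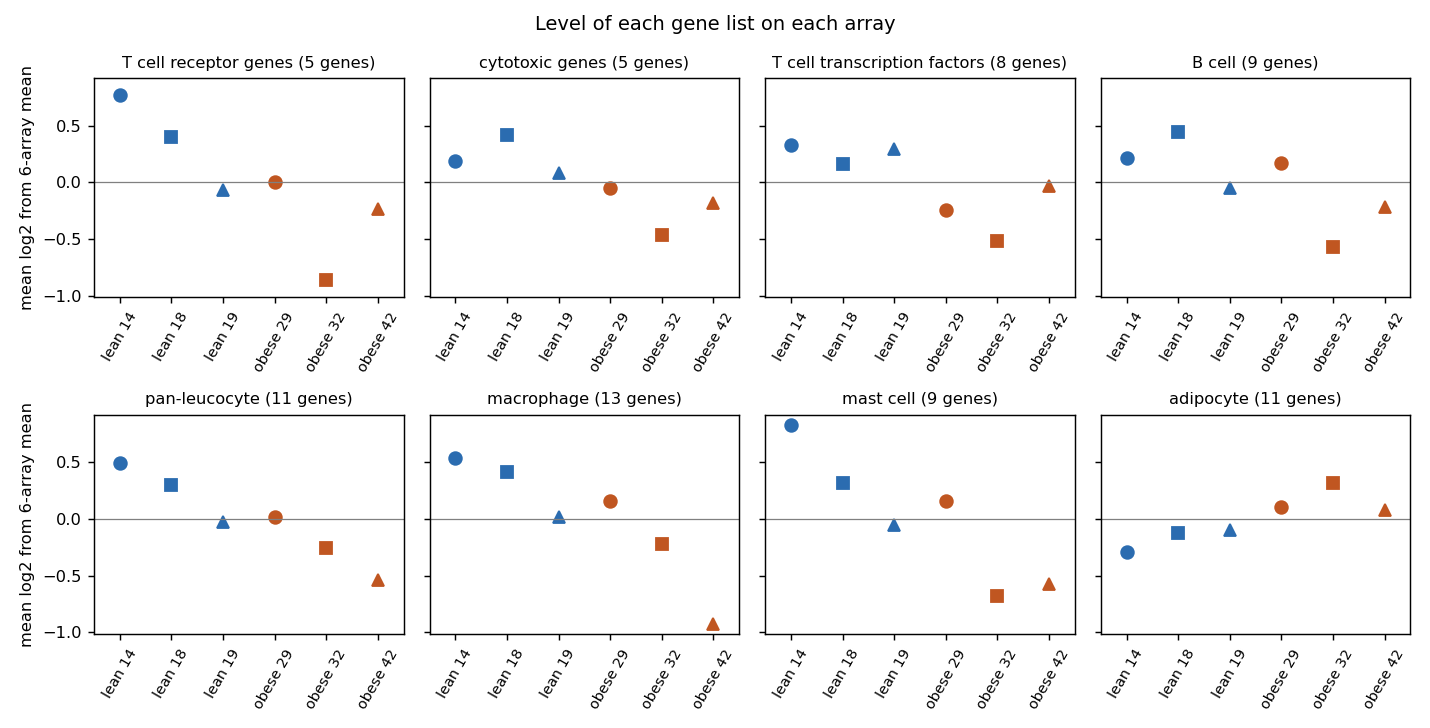
Mean log2 level of each gene list on each array, from its mean over the 6 arrays, with lean arrays in blue and obese arrays in orange. T cell receptor genes and cytotoxic genes are lowest on obese 32 (-0.87 and -0.47), macrophage genes on obese 42 (-0.93), and adipocyte genes are highest on obese 32 (0.32).

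Markers of other cells moved on the same arrays. Against 46.3% of all genes, 10 of 11 measured pan-leucocyte genes were lower (median -0.55). Against 6.18% and 7.23% of all genes, 9 of the 11 were lower and 0 higher at an unadjusted p under 0.05. Their mean level, from its mean over 6 arrays, was between -0.03 and 0.50 in lean rats and between -0.54 and 0.02 in obese rats. The pan-leucocyte marker Ptprc (CD45) lay at 8.63, 8.51 and 8.12 on the lean and at 8.14, 7.59 and 7.47 on the obese arrays (-0.68, SE 0.20). Of the others Coro1a lay at -0.75, Laptm5 at -0.55 and Arhgdib at -0.30, and the extremes were Evi2b (-0.90) and Cd52 (0.23). Set against the pan-leucocyte level of the same array, the receptor genes lay at 0.27, 0.09 and -0.04 on the lean and at -0.02, -0.61 and 0.30 on the obese arrays. That overlapped, with a difference of means of -0.22. The cytotoxic genes set against it lay at -0.31, 0.12 and 0.11 against -0.07, -0.21 and 0.36, a difference of 0.055. So on this scale neither set separated the groups, and obese 42 was the highest array for both.

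Macrophage genes were lower for 13 of 13 measured, against 46.3% of all genes (median -0.63, and -0.33 without obese 42). At an unadjusted p under 0.05, 5 of the 13 were lower and 0 higher, against 6.18% and 7.23% of all genes. The macrophage levels lay between 0.02 and 0.54 in lean rats and between -0.93 and 0.16 in obese rats. Mpeg1 lay at -0.91, Ctss at -0.77, Lyz2 at -0.63 and C1qc at -0.79, with C1qb lowest (-1.05) and Cd14 highest (-0.16). Mast cell genes (9 of 9 lower, median -0.73) lay between -0.05 and 0.83 and between -0.68 and 0.16. At an unadjusted p under 0.05, 5 of the 9 were lower and 0 higher, against the same shares of all genes. Kit lay at -0.66, Ms4a2 at -0.84, Cma1 at -0.73 and Fcer1a, the lowest, at -1.27, and Tpsab1 was highest (-0.36). Adipocyte genes went the other way, with 9 of 11 higher, against 7630 of all 14217 genes, and a median of 0.43. At an unadjusted p under 0.05, 5 of the 11 were higher and 0 lower, against 7.23% and 6.18% of all genes. Adipocyte levels lay between -0.29 and -0.10 in lean rats and between 0.08 and 0.32 in obese rats. Plin4 lay at 0.86, Cidec at 0.44, Plin1 at 0.46 and Lipe at 0.43, with Lep highest (0.98) and Cfd lowest (-0.27). Obese 32, lowest for T cell and cytotoxic genes, was also lowest for the mast cell (-0.68), B cell (-0.57) and lymph node (-0.65) lists. The pan-leucocyte (-0.54) and macrophage (-0.93) lists were lowest on obese 42. Adipocyte genes were highest on obese 32 and lowest on lean 14. Lean 14 was the highest array, and lean 19 the lowest lean array, for pan-leucocyte, macrophage and mast cell genes, as for the receptor genes. The part of these other cells in the T cell values was not tested.

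B cell and lymph node genes were read because fat around the pancreas can hold lymph nodes and lymphoid clusters. Of 9 measured B cell genes 8 lay lower, against 46.3% of all genes (median -0.42, but -0.17 without obese 32 and -0.27 without lean 18). At an unadjusted p under 0.05, 2 of the 9 were lower and 0 higher, against 6.18% and 7.23% of all genes. The B cell levels lay between -0.05 and 0.45 in lean rats and between -0.57 and 0.17 in obese rats, lowest on obese 32. Fcmr lay at -0.80, Cd37 at -0.65, Cd79b at -0.42, Cd22 at -0.22 and Fcer2, the highest, at 0.04. Of 7 lymph node genes 5 lay lower (median -0.41), and 4 were lower and 0 higher at an unadjusted p under 0.05. Cxcl13, the chemokine of B cell follicles, lay at 12.15, 12.08 and 11.58 on the lean and at 10.90, 8.10 and 11.33 on the obese arrays, again lowest on obese 32 (-1.82, SE 0.77). Ccl19, the chemokine that draws T cells, lay at 6.59, 6.52 and 6.55 against 5.996, 5.91 and 6.06 (-0.57, SE 0.083, adjusted p = 0.0956). Ltb lay at -0.71, Glycam1 at -0.41 and Madcam1, the highest, at 0.21. Whether lymphoid tissue in the samples has a part in the T cell values was not tested.

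Lean 14, highest for the receptor genes, carried pancreatic acinar transcripts, with an acinar list level of 3.74 there against -1.07 to -0.52 on the other 5 arrays. Cel lay at -1.21, Cela1 at -0.92, Sycn at -1.11 and Clps at -1.21, with Amy2a3 lowest (-2.03) and Cpa1 highest (0.54). Of these, all but Cpa1 were high on lean 14 alone. Cpa1 lay at 8.66, 4.80 and 5.27 on the lean and at 6.51, 8.14 and 5.68 on the obese arrays, so it was also high on obese 32. The acinar median of -1.21 was 0.27 without lean 14 and -1.86 without lean 18. Without lean 14 the receptor median was -0.51 and the cytotoxic median -0.59. The difference between 3' and 5' control probe sets, a sign of RNA integrity, was taken as the mean over GAPDH, beta-actin and hexokinase. This mean was between 0.79 and 1.10 in lean rats and between 0.93 and 1.28 in obese rats. It was highest on obese 42, where GAPDH (0.82) and beta-actin (1.98) were the highest of all arrays but hexokinase (1.04) the lowest. Without obese 42 the receptor and cytotoxic medians were -0.76 and -0.56. On obese 32, the array lowest for 9 of the 10 genes, the control mean was 0.93, within the lean range. The labels mark every array but obese 42 as analysed before.

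Some genes followed the sets closely over the 6 arrays, by the mean absolute gap between each gene's deviations from its own mean and those of the set. For the receptor genes these were Rac2, a GTPase of blood cells (gap 0.085), Cxcr3, the chemokine receptor of activated T cells (0.093), Rhoh (0.0995), Mmp9 (0.11) and Mcpt1l1 (0.11). Among the members themselves the gaps were 0.095 for Cd3e to 0.28 for Cd3g. Cxcr3 lay at -0.90 (SE 0.23) and Rac2 at -0.82 (SE 0.23). For the cytotoxic genes they were Ifi44l (0.048), Nckap1l (0.062), Znf846 (0.063), Tapbp, which loads peptides onto MHC class I (0.064), and Tlr1 (0.065). The closest genes of 14217 are close by selection, so the gaps describe these arrays only.

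The 3 CD3 genes lie side by side in the gene table, Cd3g next to Cd3d and then Cd3e, and their measured neighbours were read after these values were seen. Ube4a, beside Cd3g, lay at 8.17, 8.29 and 8.21 on the lean and at 8.27, 8.36 and 8.11 on the obese arrays (0.02, SE 0.096). Atp5mg and Kmt2a, further out on that side, lay at -0.05 (SE 0.16) and -0.0085 (SE 0.18). Mpzl2, a cell adhesion gene beside Cd3e, lay at 9.88, 9.84 and 9.87 against 9.69, 9.18 and 9.69 (-0.35, SE 0.15, adjusted p = 0.372), lowest on obese 32. Scn2b, past it, lay at -0.19 (SE 0.13).

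**Figure D4:**
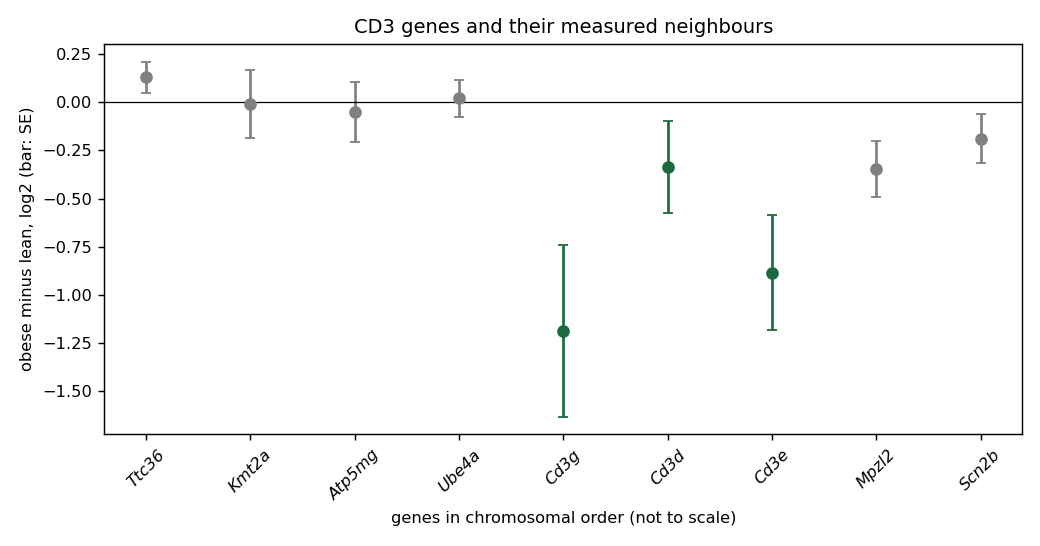
Difference of the CD3 genes (green) and their measured neighbours (grey), obese minus lean on the log2 scale with SE bars, in their order along the chromosome. Cd3g (-1.19) and Cd3e (-0.88) lie lowest, and the 4 genes to the left of Cd3g lie between -0.05 and 0.13.

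**Figure D5:**
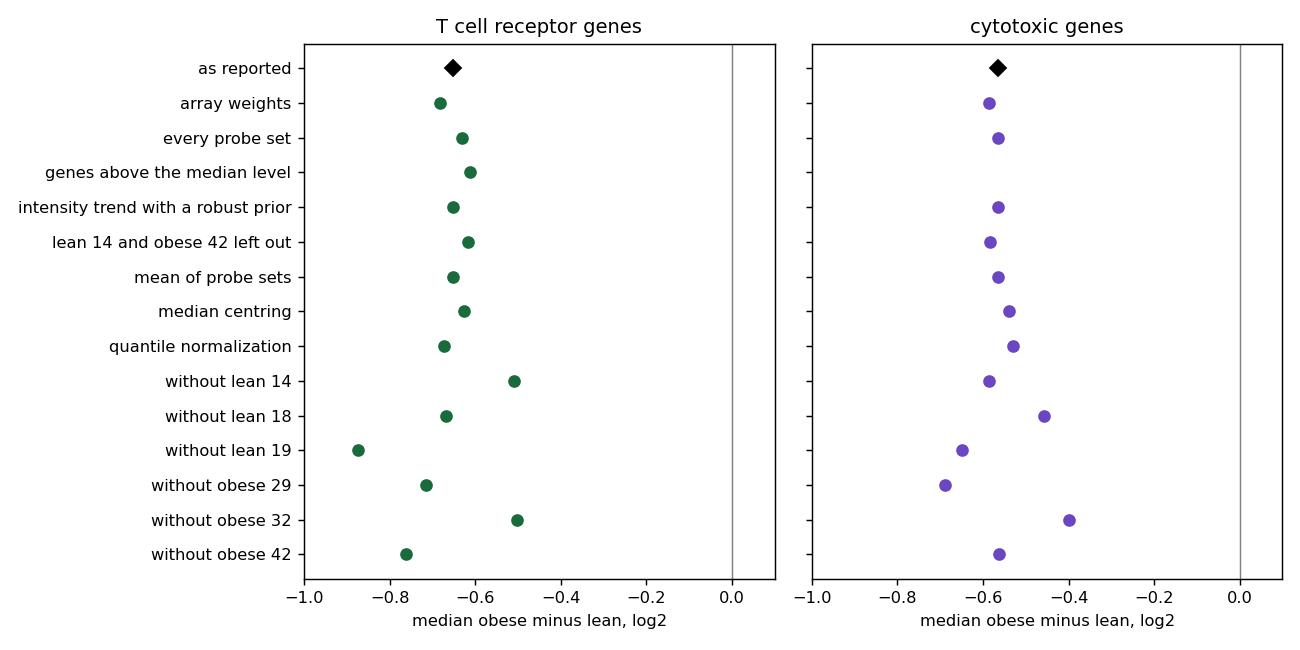
Median difference of the T cell receptor genes and of the cytotoxic genes under each way of processing the values, obese minus lean on the log2 scale. The medians stay between -0.87 and -0.50 and between -0.69 and -0.40, and the cytotoxic panel has no point for genes above the median level.

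The counts moved with single rats left out, where fewer arrays were also tested, while the medians kept their sign. The 8 genes lower at an unadjusted p under 0.05, against 6.18% of all genes, were 5 without lean 14 (3.86% of all genes), 4 without lean 18 (4.15%) and 4 without obese 32 (4.66%). They were 8 without obese 29 (6.98%), 7 without lean 19 (5.56%) and 6 without obese 42 (7.59%). They were 3 with both lean 14 and obese 42 left out (6.01%). The 6 without overlap were 9 without lean 19, where fewer arrays raise the share over all genes from 8.18% to 14.3%. With every rat left out in turn, the receptor median ran from -0.87 to -0.50 and the cytotoxic median from -0.69 to -0.40.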

How the data were processed

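Peripancreatic fat of 3 lean and 3 obese rats was measured on 1 Affymetrix rat array each. The authors deposited log2 expression per probe set. The submitters' processing notes name RMA and affy, while versions and the chip definition are not given. After 57 control probe sets were left out of 31099, 31042 remained, of which 20826 had 1 gene symbol, 436 several and 9780 none. Gene IDs of the platform annotation matched RefSeq for 20758.

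Each of 14217 genes was represented by its brightest probe set over 6 arrays, with no filter on dim ones. The groups were fitted in limma (version 3.58.1, R 4.3.3; lmFit and eBayes, without covariates, two-sided). Benjamini-Hochberg adjustment ran over all genes, calls were made at an adjusted p under 0.05, and intervals are 95%. Dimmer probe sets come from the same fit over all 31042. Precision is limited by the 6 arrays, and p reflects the spread between rats only. The fit was tested on simulated data.

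The members and lists were chosen with earlier results of these data known. The 13 lists held 172 entries, of which 139 matched, 2 through a synonym (Fasl as Faslg, Cd244 as Cd244l1). Named were all members, up to 4 genes of each other list with the smallest p, its extremes, and the 5 genes closest to each set, and other genes are said to be chosen after their values were seen. Lists are described by counts and medians, with no test. The alternatives tried changed the scaling (centring on the median, quantiles), the probe sets (their mean, each alone, only genes above the median level), the model (array weights, trended robust prior) and the arrays (each left out, lean 14 and obese 42 both left out).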

Additional observations from a re-analysis of the deposited data

How the results depend on the processing

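No paired analysis was possible because the groups share no replicate numbers. The medians of both sets kept their sign and moved by less than the spread between rats under every alternative run, between -0.87 and -0.50 for T cell receptor genes (14 alternatives) and between -0.69 and -0.40 for cytotoxic genes (13). Among genes above the median level Lck was the 1 member left, so no cytotoxic median could be computed there. Of the single genes, all but Cd8a kept their sign and 0 were called under any alternative. The count of called genes over the array was 1, against 9 with array weights, 3 with every probe set, 2 with the mean of probe sets, 0 with median centring, 0 with lean 14 and obese 42 both left out, and 0 to 34 with 1 array left out. Among genes above the median level, where fewer members are tested, the 8 members at an unadjusted p under 0.05 were 1 (7.05% of those genes). The 6 without overlap were 0 there (10.3%). With lean 14 and obese 42 left out the 8 were 3 (6.01% of all genes). With 1 array left out they were 4 to 8 (3.86% to 7.59%). The members without overlap were then 6 to 9, where fewer arrays raise the share over all genes to between 11.5% and 15.5%. Cd8a turned to -0.37 with the mean of its probe sets, -0.024 with quantile normalization and -0.040 with lean 14 and obese 42 left out, and lay between -0.031 and 0.059 with 1 array left out. Among genes above the median level the lymph node median was 0.020 and that of other cytotoxic and NK cell genes, where Ccl5 alone was left, -1.15. With lean 14 and obese 42 both left out the macrophage median was -0.23 and the adipocyte median 0.26. The adipocyte median, 0.43 as reported, was 0.26 with every probe set and 0.31 with the mean of probe sets. The acinar median was 0.16 with lean 14 and obese 42 left out and lay between -1.86 and 0.27 with 1 array left out, the highest without lean 14. The cause was not tested beyond fewer genes or arrays. Dim probe sets, such as those of Cd8a and Klrd1, limit what differences can be seen.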
